A study of Homo sapiens with 2 samples.

Results

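Alu elements and the other short interspersed elements (SINEs) were taken as every row of the 2 deposited repeat tables whose name starts with Alu, FLAM, FRAM, FAM or MIR. This gave 55 of 5833 repeat names. They fell into 24 AluY rows, 17 AluS rows, 4 AluJ rows, 4 monomer rows (FAM, FLAM-A, FLAM-C and FRAM), 5 MIR rows and 1 row named Alu with no subfamily. The rule used names only, but it was chosen with earlier results of these data known. Both samples are of the established human line H9: embryonic stem cells (ESCs), and feeder-free extended pluripotent stem cells (ffEPSCs), a state with wider developmental reach. The labels give neither a treatment nor a passage for either state. Each column of the files is 1 cell, read with Smart-seq2, which copies polyadenylated RNA and amplifies it without molecular barcodes. The ESC sample held 16 cells and the ffEPSC sample 25, so each state was 1 sample, no test between states was possible and no p-value is given.

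SINEs are short repeats that encode no protein and are copied to new places by the proteins of LINE elements. Alu arose in primates from 7SL RNA, the RNA of the signal recognition particle. Its free left and right monomers (FLAM, FRAM) and the fossil monomer FAM came first, followed by the dimeric AluJ, then AluS and then AluY, which includes the subfamilies that still move in people, such as AluYa5 and AluYb8. MIR, the mammalian-wide interspersed repeat, is older, has a tRNA-like head and was copied by the LINE L2. It has nothing to do with microRNA genes, whose symbols also start with MIR. Many Alu copies lie inside the introns and ends of genes, so a read of an Alu row can come from a gene's transcript as well as from an Alu promoter.

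The ESC sample had 129041480 repeat counts (4560140 to 11088400 per cell) and the ffEPSC sample 179248893 (5018790 to 9825753 per cell). Cells of the 2 samples shared 0 names. Cell names carry a set number of unstated meaning. Set 1 had 7 ESC and 3 ffEPSC cells, set 3 had 9 and 2, and the other sets had ffEPSC cells alone. All 5 pluripotency genes checked, POU5F1, NANOG, SOX2, LIN28A and DNMT3B, were read in both samples. The naive or extended state genes DNMT3L, KLF4, DPPA3 and TFAP2C had log2 ratios of 2.34 or more, and the endoderm genes GATA6 and SOX17 were not listed. The primed state genes DUSP6, OTX2 and ZIC2 were lower in the ffEPSC sample (-2.85, -1.44 and -0.84). Within set 3 they were at -3.06, -0.18 and -0.03. All 5 genes of a feeder or fibroblast list, among them THY1 and S100A4, were also lower (median log2 ratio -1.56). THY1 was read in every cell, at 60.4 to 604 counts per 1000000 gene counts (CPM) in ESCs and 32.5 to 404 CPM in ffEPSCs. Whether feeder cells were present, and the part of these genes in the SINE values, was not tested. In 4 ESC cells POU5F1 was below 300 CPM. They had 11714517 to 14683949 gene counts, against 16349317 or more in the other ESC cells.

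SINE rows made up 11.9% of repeat counts in the ESC sample and 13.4% in the ffEPSC sample. Per ESC cell the SINE share ran from 7.38% to 17.6% with a median of 12.2%. Per ffEPSC cell it ran from 9.36% to 22.2% with a median of 13.9%, so the states overlapped over most of their range. The log2 ratio of ffEPSC over ESC was 0.17 (95% interval for counting error only, 0.168 to 0.170). Over the 558 repeat rows with at least 100 counts per 1000000 repeat counts (repeat CPM) in 1 sample, called the floor, the median log2 ratio was 0.16. The SINE rows as a whole thus lay close to the typical repeat row.

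A second class of rows moved with that share. The small and large subunit ribosomal RNA rows held 52.6% of repeat counts in the ESC sample and 45.3% in the ffEPSC sample, and from 20.1% to 68.2% in single cells. Over the 41 cells the SINE share and the ribosomal RNA share had a Spearman rho of -0.93, and -0.96 and -0.93 within ESC and ffEPSC cells. Both are shares of the same total, so part of this relation is built in. With ribosomal RNA, other RNA genes, simple repeats and low complexity rows taken out of the total, 1231 transposon, satellite and composite rows remained. Of those counts, SINE rows were 33.7% in the ESC sample and 32.0% in the ffEPSC sample, a log2 ratio of -0.07. On that scale the direction of the SINE share was the opposite of that on the scale of all repeat counts. The rho with the ribosomal RNA share was then 0.20. Cells ranged from 31.0% to 36.1% in ESCs and from 28.2% to 36.7% in ffEPSCs.

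**Figure D1:**
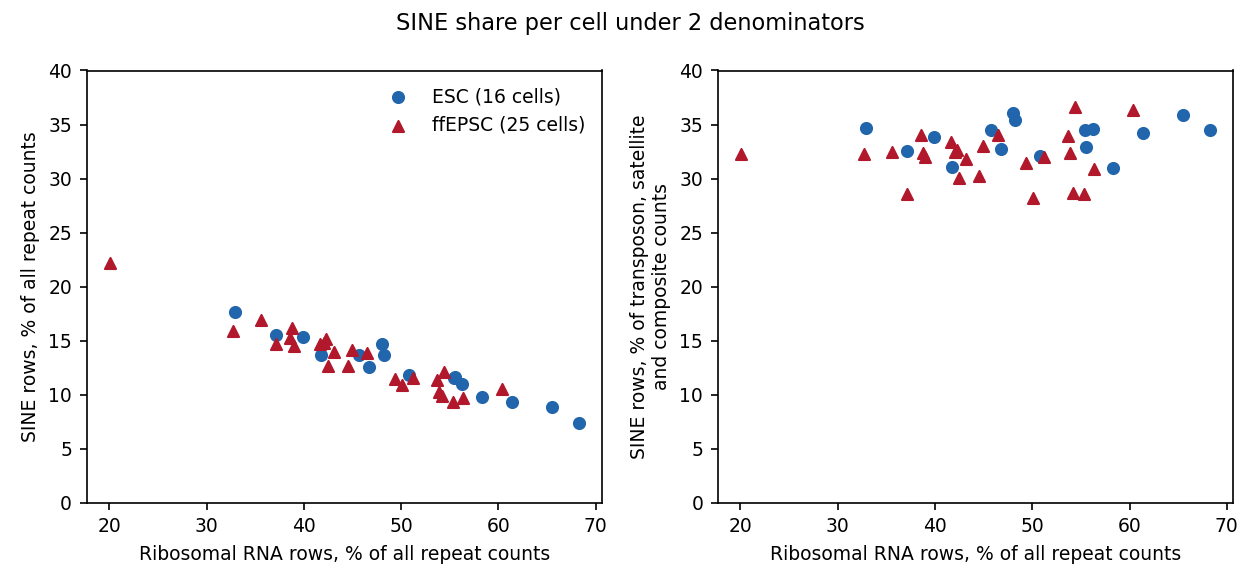
SINE share of each cell (vertical axis) against the ribosomal RNA share of repeat counts (horizontal axis, %), with circles for the 16 ESC cells and triangles for the 25 ffEPSC cells. On the left, SINE rows as % of all repeat counts fall from 22.2% to 7.38% as ribosomal RNA rises; on the right, as % of transposon, satellite and composite counts, they stay between 28.2% and 36.7%.

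Per 100 gene counts a cell had a median of 5.74 SINE counts in ESCs (4.11 to 8.01) and 5.64 in ffEPSCs (4.15 to 13.8). The highest value was that of ffEPSC cell E1 of set 1, which also had the highest SINE share of repeat counts (22.2%) and the lowest ribosomal RNA share (20.1%). Its SINE share of transposon, satellite and composite counts, 32.2%, lay in the middle of the range. Without this cell the pooled log2 ratio of all SINE rows on the repeat scale was 0.12. Scaled to gene counts, the pooled log2 ratio with all cells was 0.15, although the cell median on that scale was lower in ffEPSCs.

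The make-up of the SINE counts was alike in both samples. AluS rows held 45.8% of SINE counts in ESCs and 45.4% in ffEPSCs, MIR rows 20.5% and 19.8%, AluJ rows 17.3% and 17.7%, and AluY rows 13.4% and 13.7%. The monomers held 2.84% and 3.14%. In single cells the AluS part stayed between 43.0% and 47.6%, while the AluY part ranged from 11.1% to 18.6%. These are shares of counts, corrected neither for the number of copies of a subfamily nor for their length, so they do not rank activity.

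**Figure D2:**
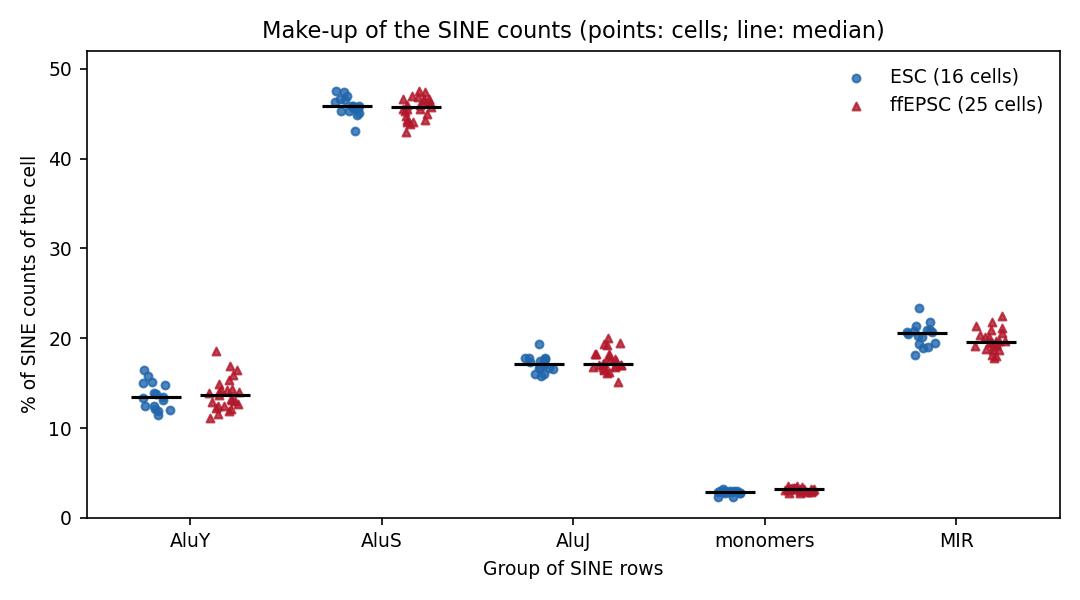
Share of each cell's SINE counts (%) held by the 5 groups of rows, with a point per cell, circles for ESC, triangles for ffEPSC and a line at the median. The states overlap in every group, with AluS at 43.0% to 47.6% and the monomers at 2.27% to 3.55%.

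By group, log2 ratios of summed counts on the repeat scale did not follow the order of age. MIR, the oldest, was at 0.12, AluJ at 0.21, AluS at 0.16 and AluY, the youngest, at 0.19, with the monomers at 0.31. On the transposon scale the same groups were at -0.12, -0.04, -0.08 and -0.05, with the monomers at 0.07. By summed counts the monomers were thus the only one of the 5 groups above 0 on both scales. Among their rows FLAM-C alone was (0.13 on the transposon scale, against -0.01 for FRAM and -0.10 for FLAM-A). The median of rows at the floor gave another order on the transposon scale. It was 0.10 for AluY, 0.02 for AluJ, -0.01 for the monomers, -0.09 for AluS and -0.12 for MIR. Of 15 AluY rows 9 were above 0, among them AluYk4 and AluYj4, which reached the floor only through the ffEPSC sample. Within sets 1 and 3 the summed monomer ratios on the repeat scale were 0.63 and 0.41, against medians of 0.43 and 0.24 over all rows at the floor. AluY was at 0.33 within set 1 and at -0.0011 within set 3.

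Of the 55 members, 45 reached 100 repeat CPM in at least 1 sample and 10 did not, 9 of them AluY rows and the other FAM. Every member had counts in each of the 41 cells, the lowest being 5 counts for AluYi6-4d in an ESC cell. Of the 45, 43 were above 0 on the repeat scale, against 76% of all 558 rows, with a median of 0.17. On the transposon scale 29 of the 45 were below 0, against 62.5% of 403 rows, with a median of -0.08 for the members and -0.07 for all 403. A log2 ratio of 0.32 or more was found for 10 of the 45 (22.2%), against 28% of all rows. These were 8 of 15 AluY rows, 1 of 4 AluJ rows and 1 of 3 monomers, with 0 of 17 AluS rows and 0 of 5 MIR rows. Of these AluY rows, AluYk4 and AluYj4 reached the floor only through the ffEPSC sample, where they were higher. A log2 ratio of -0.32 or less was found for 0 of the 45, against 5.91% of all rows. A difference of 2-fold was reached by 0 of the 45 on either scale. On the repeat scale 4.66% of all rows were that much higher and 0.358% that much lower, and on the transposon scale 3.23% and 0.744%. In 0 of the 55 members were the cells of the states apart, against 0.538% of all rows at the floor. On the transposon scale 0 of the 45 passed 0.32 in either direction, where 8.44% of rows were higher and 13.4% lower. The 10 members below the floor ran from -0.13 (AluYk11) to 0.64 (AluYi6-4d), and the row named Alu was at 253 and 278 repeat CPM (0.14).

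**Figure D3:**
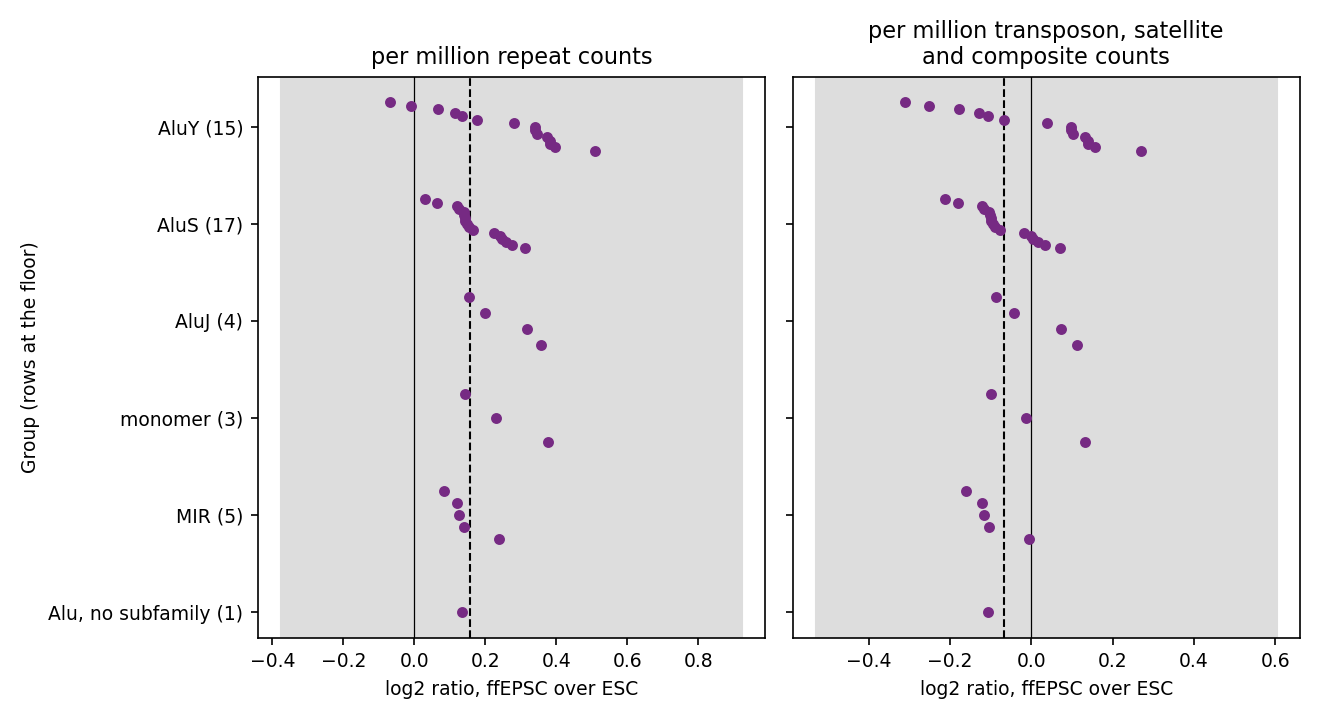
Log2 ratio of ffEPSC over ESC (horizontal axis) for the 45 SINE rows at 100 repeat CPM or more, by group, on the scale of all repeat counts (left) and of transposon, satellite and composite counts (right). Grey bands are the 5th to 95th percentiles of all rows at the floor and dashed lines their medians, 0.16 and -0.07; the 45 SINE rows lie between -0.07 and 0.51 on the left and between -0.31 and 0.27 on the right, within the bands.

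Among the AluS rows, AluSx was the most counted SINE row of all. Its repeat CPM per cell ran from 15718 to 39159 in ESCs with a median of 27382, and from 20845 to 48027 in ffEPSCs with a median of 30744. The ranges overlapped widely, and the pooled levels of 26404 and 29614 gave a log2 ratio of 0.17. AluSx, AluSx1 and AluSp together with 14 other AluS rows all had repeat-scale ratios from 0.03 (AluSg7) to 0.31 (AluSz6). AluSg7 had 564 repeat CPM in the ESC sample and 576 in the other, and AluSx1, at 4988 and 5213, was also among the 4 lowest ratios of the members at the floor (0.06).

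AluJb held most of the AluJ counts. It was at 18578 repeat CPM in the ESC sample (10543 to 26673 per cell) and 21336 in the ffEPSC sample (14547 to 40074 per cell), a log2 ratio of 0.20. AluJo was at 634 and 812 repeat CPM (0.36). The 4 AluJ rows ran from 0.16 to 0.36.

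FLAM-C, a free left Alu monomer, was the most counted monomer row. It ranged from 1357 to 3015 repeat CPM in ESC cells with a median of 2019, and from 1974 to 4354 in ffEPSC cells with a median of 2729. The ranges overlapped, but the ffEPSC median was near the upper end of the ESC cells. Its log2 ratio was 0.38 with all cells in, and 0.63 and 0.44 within sets 1 and 3. FRAM, the free right monomer, was at 794 and 932 repeat CPM (0.23), FLAM-A at 380 and 420 (0.14) and FAM at 81.3 and 92.0 (0.18, below the floor).

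The MIR rows moved little among themselves. MIRb was at 8723 repeat CPM in the ESC sample (5589 to 13040 per cell) and 9488 in the ffEPSC sample (6214 to 17397 per cell), a log2 ratio of 0.12. MIR was at 7349 and 8025 (0.13), MIR3 at 4065 and 4307 (0.08), MIRc at 3688 and 4062 (0.14) and MIR1-Amn at 572 and 674 (0.24). All 5 were below 0 on the transposon scale. The MIR share tracked that of L2, the LINE that once copied it: over the 41 cells their shares of transposon, satellite and composite counts had a Spearman rho of 0.80. For all Alu rows together with L2 it was 0.33, but likeness to L2 was not particular to MIR. Between the AluJ and MIR groups the rho was 0.70. In log2 shares of those counts, the Pearson r with L2c was 0.848 for MIR and 0.756 for AluJb. The row nearest to AluJo (0.670) and FAM (0.662) was L2, while for AluJr and AluJr4 it was another repeat. Of 55 other transposon rows at 1000 repeat CPM or more, the 4 whose share of repeat counts was most like the summed SINE share were L2a (rho 0.94), L2c (0.93), L2b (0.92) and L1ME4a (0.91). The shares in this last comparison have the ribosomal RNA rows in their total.

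Single high cells were counted for each member. No such count is given for other repeat rows, so whether these cells are particular to AluY rows was not tested. Of the 24 AluY rows, 15 had at least 1 cell at over 2 times the row's median share of transposon, satellite and composite counts. The same held for 4 of 17 AluS rows, 0 of 4 AluJ rows, 1 of 4 monomers and 0 of 5 MIR rows. Of the 15 AluY rows with such a cell, 8 were below the floor, as was the monomer (FAM). At the floor the count was 7 of 15 AluY rows, 4 of 17 AluS rows and 0 of the AluJ, monomer and MIR rows. AluYb8, one of the 7, had at least 2819 counts in every cell.

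AluYb8, a subfamily that still moves in people, had the cell farthest above its median, at 8.48 times the median share. By the ratio of the highest to the lowest cell (12.3 for AluYb8), 5 other AluY rows were more uneven, up to 56.4 for AluYi6-4d, which is below the floor. Its repeat CPM ran from 265 to 2103 in ESC cells with a median of 584, and from 402 to 5376 in ffEPSC cells with a median of 640. Of the 41 cells, 6 were over 2 times the median of its transposon-scale share, 4 of them ESC cells and 2 ffEPSC cells. Its counts were 34042 in ffEPSC cell H7 and 21324 in F5, both of set 4, and 15878 in ESC cell B6 of set 3 and 15442 in A2 of set 1, against a median of 4608 over all cells. The pooled log2 ratio was 0.18 with all cells, -0.01 within set 1 and -0.62 within set 3. Without these 6 cells, chosen after their values were seen, it was 0.30, and leaving out high cells lowers the state that holds them.

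AluYa5, the other large mobile subfamily, was also uneven, in part in other cells. Its repeat CPM ran from 572 to 2842 in ESC cells with a median of 1238, and from 597 to 3680 in ffEPSC cells with a median of 1137. The pooled log2 ratio was -0.01, with -0.17 within set 1 and -0.47 within set 3. Without the 3 cells over 2 times the median, also chosen after their values were seen, it was -0.09. ESC cell A2 was high in both AluYa5 (24508 counts) and AluYb8, while ffEPSC cell H1 of set 2 had the most AluYa5 counts (30471) and 4230 counts of AluYb8.

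AluYk4 had the highest ratio of the members at the floor, 0.51, with 84.6 repeat CPM in the ESC sample and 121 in the other. It reached the floor only through the ffEPSC sample, where it was higher, as did AluYj4 (82.7 and 109 repeat CPM). The AluYk4 ratio was 0.52 within set 1 and -0.36 within set 3. In 4 cells, all of them ffEPSC cells, its share was over 2 times the median. Without these 4 cells, chosen after their values were seen, the log2 ratio was -0.03, and leaving out high cells of 1 state can only lower that state. AluYj4 (0.40), AluYb9 (0.38) and AluYe5 (0.38) had the next highest ratios, and that of AluYe5 was 0.58 within set 1 and -0.20 within set 3. The lowest were those of AluYh3 (-0.07), AluYa5, AluSg7 and AluSx1. AluY itself, the row of the parent subfamily, was at 7849 repeat CPM in the ESC sample (4651 to 12151 per cell) and 8625 in the ffEPSC sample (5539 to 14467 per cell), a ratio of 0.14. Like 8 of the other AluY rows, it had no cell at over 2 times the median.

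**Figure D4:**
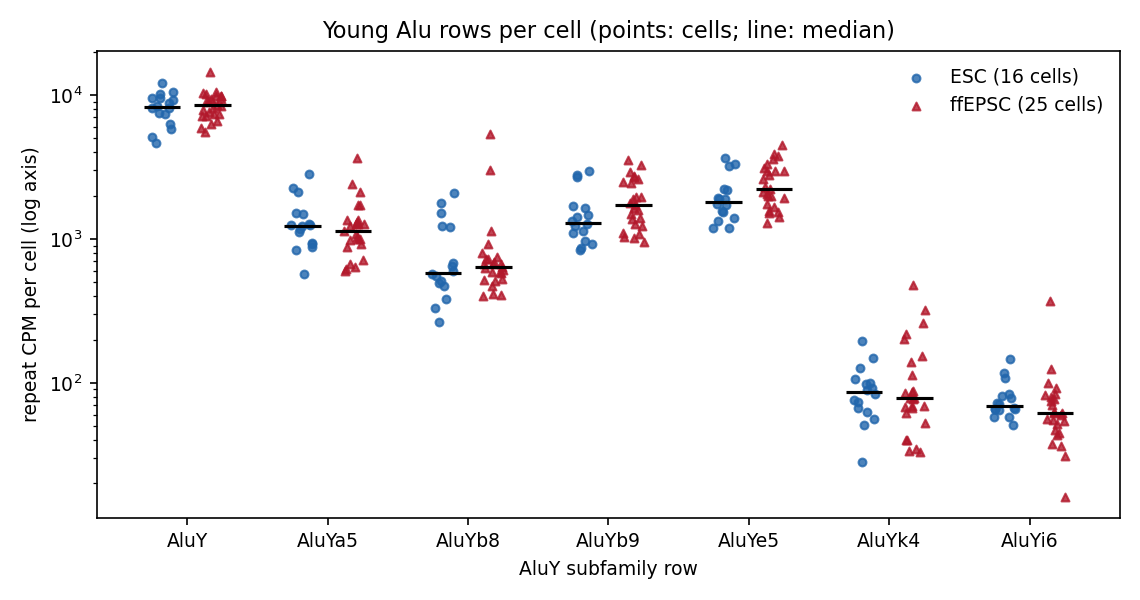
Repeat CPM per cell (log axis) of 7 AluY rows, with circles for ESC cells, triangles for ffEPSC cells and a line at the median. AluY cells lie between 4651 and 14467, while AluYb8 runs from 265 to 5376 with single cells far above the rest.

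AluYb9 moved in step with 2 repeats that are not SINEs. In every cell its counts were close to those of LTR41, a long terminal repeat, and of MER53, a DNA transposon. LTR41 had 0.880 to 1.05 times the AluYb9 counts over the 41 cells, and MER53 0.909 to 1.05 times, while AluYb9 itself ran from 7362 to 27209 counts. In log2 counts per gene count the Pearson correlation of AluYb9 with LTR41 and with MER53 was 0.997 over the 41 cells. AluYb8, of the same Yb lineage, had from 0.155 to 2.90 times its counts.

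Such a partner was found for no other member at that strength. In log2 shares of transposon, satellite and composite counts, AluYb9 and MER53 correlated at 0.996, while for the other 54 members the best of 928 rows reached at most 0.926 with a median of 0.643. The highest of these were AluSg4 with MER53 (0.926) and AluYe5 with LTR41 (0.895). Genes were compared with counts per gene count, so both values share the cell's gene counts as their total. Of 10240 genes with a mean of 5 CPM over the cells, the one nearest to AluYb9 was BDNF-AS (Pearson r 0.976), followed by HSP90AA1 (0.717). BDNF-AS is a non-coding gene antisense to the neurotrophin gene BDNF. It was also the nearest to AluSg4 (0.880) and to AluYe5 (0.872). BDNF-AS was at 129 CPM in the ESC sample and 159 CPM in the ffEPSC sample. Its counts were 0.140 to 0.236 times those of AluYb9 in each cell. No source used here says whether counting used strand, so reads of BDNF-AS and its antisense partner cannot be told apart. The tables give no positions, so whether these rows count reads of 1 place was not tested. The rows were singled out after their values were seen.

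**Figure D5:**
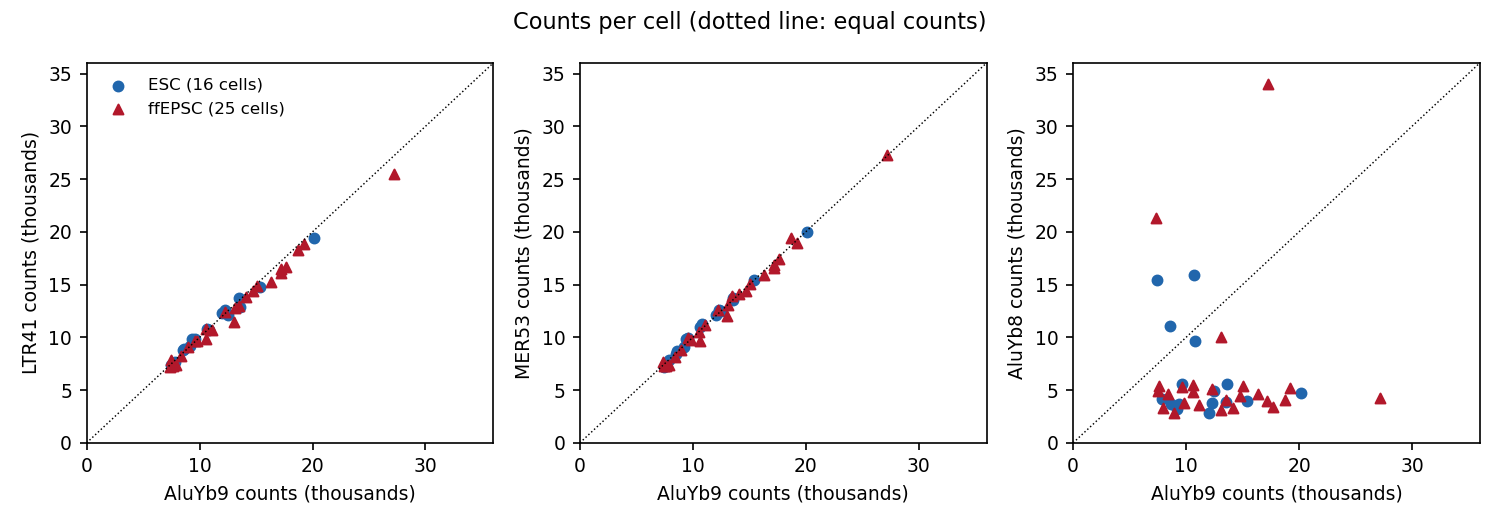
Counts per cell (in units of 1000) of LTR41, MER53 and AluYb8 (vertical axes) against AluYb9 (horizontal axes), with circles for ESC cells and triangles for ffEPSC cells. LTR41 and MER53 lie along the dotted line of equal counts from 7362 to 27209 AluYb9 counts, and AluYb8 does not.

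The AluYb9 levels were 1407 repeat CPM in ESCs (845 to 2979 per cell) and 1834 in ffEPSCs (959 to 3518 per cell), with LTR41 at 1402 and 1770 and MER53 at 1419 and 1812. Its log2 ratio of 0.38 was 0.06 within set 1 and -0.26 within set 3, and those of LTR41 (0.34) and MER53 (0.35) also went below 0 within set 3 (0.01 and -0.25 within the sets for LTR41, 0.03 and -0.26 for MER53). Without the 4 ESC cells of low POU5F1 it was 0.63.

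Of other mobile elements that share parts with Alu or its copying proteins, SVA and L1HS differed more. SVA, a composite element with an Alu-like part, had 486 repeat CPM in the ESC sample and 1846 in the other over its 6 rows (1.92 on the repeat scale, 1.68 on the transposon scale). L1HS, the youngest human LINE, whose proteins also copy Alu, was at 1759 and 2541 (0.53 and 0.29). Each of the 5 SINE groups lay below L1HS on both scales. The LINE rows L1PA2 to L1PA7 together were at 8197 and 10182 repeat CPM (0.31 and 0.07), close to the monomers on both scales.

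Genes that act on Alu RNA are given from 4 lists. Over all 10825 genes at 5 CPM or more the median log2 ratio was 0.04, with 8.3% of genes 2-fold or more above and 5.84% 2-fold or more below. Of 19 measured genes of RNA polymerase III and its factors, which transcribe Alu from its own promoter, 0 were at least 2-fold higher and 1 lower, with a median of -0.06. The lower gene was POLR3G, the stem cell form of a polymerase subunit. It ranged from 270 to 847 CPM in ESC cells with a median of 504, and from 72.3 to 412 CPM in ffEPSC cells with a median of 220. The ranges overlapped, and its log2 ratio was -1.16, with -0.99 within set 1 and -0.76 within set 3. Its partner form POLR3GL was below the floor for genes (1.45 and 2.16 CPM). GTF3C6, a TFIIIC subunit gene, was at 371 and 208 CPM (-0.83) and BDP1, a TFIIIB subunit gene, at 69.8 and 129 CPM (0.88).

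In the list of the signal recognition particle and Alu RNAs, 6 genes were measured, 0 passed 2-fold and the median was -0.09. All 6 code for proteins of the particle. Of the RNA genes, RN7SL1 was below the floor for genes (1.38 and 3.69 CPM), and RN7SL2 and BCYRN1 were not listed. Among the repeat rows, 7SLRNA was at 104 and 141 repeat CPM (0.44) and BC200, below the floor, at 35.2 and 42.1 (0.25). On the transposon scale these ratios were 0.20 and 0.02. SRP9 and SRP14, whose proteins form the dimer that binds the Alu fold, were both lower in the ffEPSC sample. SRP9 ranged from 1106 to 2418 CPM in ESC cells and from 673 to 1236 CPM in ffEPSC cells, a log2 ratio of -0.55 (-0.40 and -0.37 within sets 1 and 3). SRP14 ranged from 845 to 4457 CPM and from 612 to 1129 CPM, a ratio of -0.82 (-1.05 and -0.49 within the sets). The ranges of both overlapped.

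In the list of RNA editing and double-stranded RNA sensing, 3 of 10 genes were measured, with 0 past 2-fold and a median of -0.05. ADAR, which edits adenosines in paired Alu copies, was at 170 and 164 CPM (-0.05), and EIF2AK2, the kinase PKR that binds double-stranded RNA, at 94.5 and 52.9 CPM (-0.82, but 0.05 within set 3). All 10 genes for proteins that bind Alu in transcripts were measured, with 0 at least 2-fold higher, 1 lower and a median of -0.12. HNRNPC, which keeps Alu sequence out of spliced transcripts, was at 1759 and 1839 CPM (0.06), and DHX9, a helicase that opens paired Alu copies, at 273 CPM in both samples. The lower gene was MATR3, at 7.15 and 2.72 CPM (-1.13), near the floor of 5 CPM for genes. Its cells overlapped, from 0.17 to 31.5 CPM in ESCs and from 0 to 15.7 CPM in ffEPSCs. Its ratio was -0.42 within set 1 and -2.35 within set 3.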

How the data were processed

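Per the submitters' processing notes, the authors worked with HISAT2 2.2.1, Subread 2.0.6 with featureCounts, SAMtools 1.6 and bcl2fastq, and the builds were GRCh38 and T2T-CHM13. No source used here gives the repeat annotation, what was done with multi-mapping reads, or whether strand was used. These choices bear on Alu rows, whose copies are near-identical. The labels name a kit for total RNA beside Smart-seq2. The deposited values are whole-number counts per gene or repeat name and cell, without normalization. A median of 49.8% of non-zero repeat counts were even in ESC cells and 49.3% in ffEPSC cells. Whether gene counts and repeat counts are in the same unit, reads or read pairs, was not tested.

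For each sample the cells' counts were added up and scaled to total repeat counts (repeat CPM), to transposon, satellite and composite counts sorted by name, or to gene counts (CPM). Each log2 ratio sets ffEPSC over ESC with 1 added to both. Rows at the floor had 100 repeat CPM in 1 sample, and genes 5 CPM. Intervals are exact conditional binomial at 95% and cover counting error only, since amplified reads are not independent molecules. Doublets were not called and 0 cells were removed. Named rows were the most counted row of each group, the 4 highest and 4 lowest ratios at the floor, all monomer and MIR rows, AluY, AluYa5, AluYb8 and AluYb9. Members, lists and rules were chosen with earlier results of these data known. Ratios were tested on simulated data after the median of unchanged rows was subtracted, which was not done for the reported ratios. No difference in ribosomal RNA between the states was simulated. Sequences of RNAs related to Alu, and a search of transcripts with them, are not reported here. Python 3.11.15, pandas 2.3.3 and scipy 1.17.1 were used.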

Additional observations from a re-analysis of the deposited data

How the results depend on the processing

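No paired analysis was possible because each state is 1 sample. The log2 ratios of all SINE rows and of the AluY, AluS, AluJ, monomer and MIR groups, in that order, were as follows. Scaled to gene counts they were 0.15, 0.17, 0.14, 0.18, 0.29 and 0.10, although the cell median of all SINE rows on that scale was lower in ffEPSCs. As the mean of cells they were 0.11, 0.13, 0.10, 0.14, 0.26 and 0.067. Scaled to transposon, satellite and composite counts they were -0.074, -0.050, -0.084, -0.038, 0.071 and -0.12. Scaled to repeat counts without ribosomal RNA they were -0.038, -0.013, -0.048, -0.0013, 0.11 and -0.084. Within set 1 they were 0.49, 0.33, 0.46, 0.66, 0.63 and 0.48, and within set 3 they were 0.20, -0.0011, 0.21, 0.31, 0.41 and 0.19. Without the 4 ESC cells of low POU5F1 they were 0.21, 0.28, 0.19, 0.22, 0.31 and 0.16. Without ffEPSC cell E1 of set 1 they were 0.12, 0.16, 0.11, 0.14, 0.26 and 0.066. AluYb9 was at -0.26 within set 3. The 10 members with a log2 ratio of 0.32 or more became 32 within set 1, 0 on the transposon scale and 1 after subtracting the median of all rows, and the 0 lower became 1 within set 1 and 3 within set 3. The other settings for these counts gave 8 to 13 higher and 0 lower. The scalings without ribosomal RNA, the runs without cell E1, the AluYb9 settings, and the centred and transposon-scale counts were chosen after seeing the data. So were the runs without the high cells of AluYb8, AluYa5 and AluYk4. Where values differ between settings, the cause was not tested. Sets 1 and 3 hold 3 and 2 ffEPSC cells, and with 1 sample a state, differences between cultures and between states cannot be told apart.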

Other observations

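The 4 remaining rows with SINE in their names (AmnSINE1, AmnSINE2, LFSINE-Vert and MamSINE1) are ancient elements outside the Alu and MIR names. Together they were at 1094 repeat CPM in the ESC sample and 991 in the ffEPSC sample, a log2 ratio of -0.14. It was -0.05 within set 1, -0.01 within set 3 and -0.07 without the 4 ESC cells of low POU5F1. The 54 tRNA rows, the gene family from which the MIR head derives, were at 1146 and 1799 repeat CPM (0.65).

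Counts of AluSx, AluJb and MIRb per gene count had the same genes nearest to them over the 41 cells. These were SNHG14, the long non-coding host transcript of an imprinted region (Pearson r 0.714, 0.734 and 0.735), XACT, a non-coding RNA of pluripotent cells (0.687 with AluJb and 0.703 with MIRb), and BPTF (0.690, 0.703 and 0.694). SNHG14 was also nearest to FLAM-C (0.720). All of these values share the cell's gene counts as their total.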
